A study of Arabidopsis thaliana with 12 samples.

Results

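The features described here are those that the authors' deposited comparison tables list for both nrpe1 and swi3b +/- and do not list for idn2-1. The rule finds 97 features, 96 genes and 1 transposable element, out of 1618 features listed for any mutant of the series. They are 15.4% of the 629 features of the swi3b +/- table and 19.1% of the 509 features of the nrpe1 table. Another 68 features are listed for all 3 mutants and serve as the nearest comparison.

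RNA came from Arabidopsis thaliana seedlings 2 to 3 weeks old, grown in long days and depleted of ribosomal RNA before sequencing. The groups were swi3b +/- (heterozygous for a mutation in SWI3B), nrpe1 (mutant in NRPE1) and the wild type Col-0, with 3 replicates each, 9 samples in all; nothing in the labels says that these came from separate cultures. The labels name no allele for swi3b or nrpe1, and the heterozygotes keep a normal copy of SWI3B. Each table holds 1 pooled RPKM value per genotype (reads per kilobase of transcript, scaled to library size), so no spread between replicates can be given and no member was tested anew. The q-values are the authors' own, and sequencing depth is unknown. In such bulk RNA, a change in the number of cells of a type and a change in RNA per cell cannot be told apart.

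RNA polymerase V, whose largest subunit is NRPE1, makes non-coding transcripts that guide DNA methylation and silencing of transposons and nearby genes. SWI3B is a core subunit of SWI/SNF complexes, which use ATP to move or evict nucleosomes, and plants without any SWI3B die as embryos. IDN2 is an RNA-binding protein of the same silencing pathway. The series title joins such a remodelling complex to silencing by non-coding RNA. The features listed for both mutants show which RNA levels differed from Col-0 in each. Whether the subunit and the polymerase act on these transcripts themselves was not tested.

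In the nrpe1 table the NRPE1 transcript itself was at 1.01 RPKM in nrpe1, against 3.98 RPKM in Col-0. SWI3B is not among the features listed for swi3b +/-, so its level could not be checked. None of the marker genes of flowers (4), roots (4), seeds (3) or leaves (5) that were looked up is listed in either table, and since the tables hold only listed features, the labelled tissue could not be checked against them. Of the 23 genes of RNA-directed DNA methylation, the 7 SWI/SNF subunit genes and the 2 silenced target genes examined, none is a member.

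The members were mostly genes that are more highly expressed in both mutants than in Col-0. Of the 97, 81 were higher in both mutants, 12 were lower in both and 4 went in opposite directions. Higher genes included sulphur-limitation genes, ethylene synthesis genes, transcription factors, immune receptors and morning clock genes. In all features tested, the authors' deposited tables list 1.87% as higher and 0.556% as lower in swi3b +/-, and 1.04% as higher and 0.848% as lower in nrpe1. Being listed chose the members, so nothing is read from their own counts against those shares. Both comparisons use the same Col-0 value for every member, so a shared direction against Col-0 is not independent evidence from 2 mutants. The ratio of swi3b +/- to nrpe1 does not contain the Col-0 value. Both of its terms were still used to choose the members, and all features listed in both mutants were chosen likewise. That ratio is therefore a description only.

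Among members higher in both mutants, the median fold over Col-0 was 2.19 in swi3b +/- and 1.84 in nrpe1 (80 features with a Col-0 value above 0). The median level of the 81 was 21.1 RPKM in swi3b +/-, 17.1 RPKM in nrpe1 and 8.24 RPKM in Col-0. For the 12 members lower in both, the median fall was 1.64-fold in swi3b +/- and 1.63-fold in nrpe1. These genes were more highly expressed, with a median of 44.1 RPKM in swi3b +/-, 45.5 RPKM in nrpe1 and 69.8 RPKM in Col-0.

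**Figure D1:**
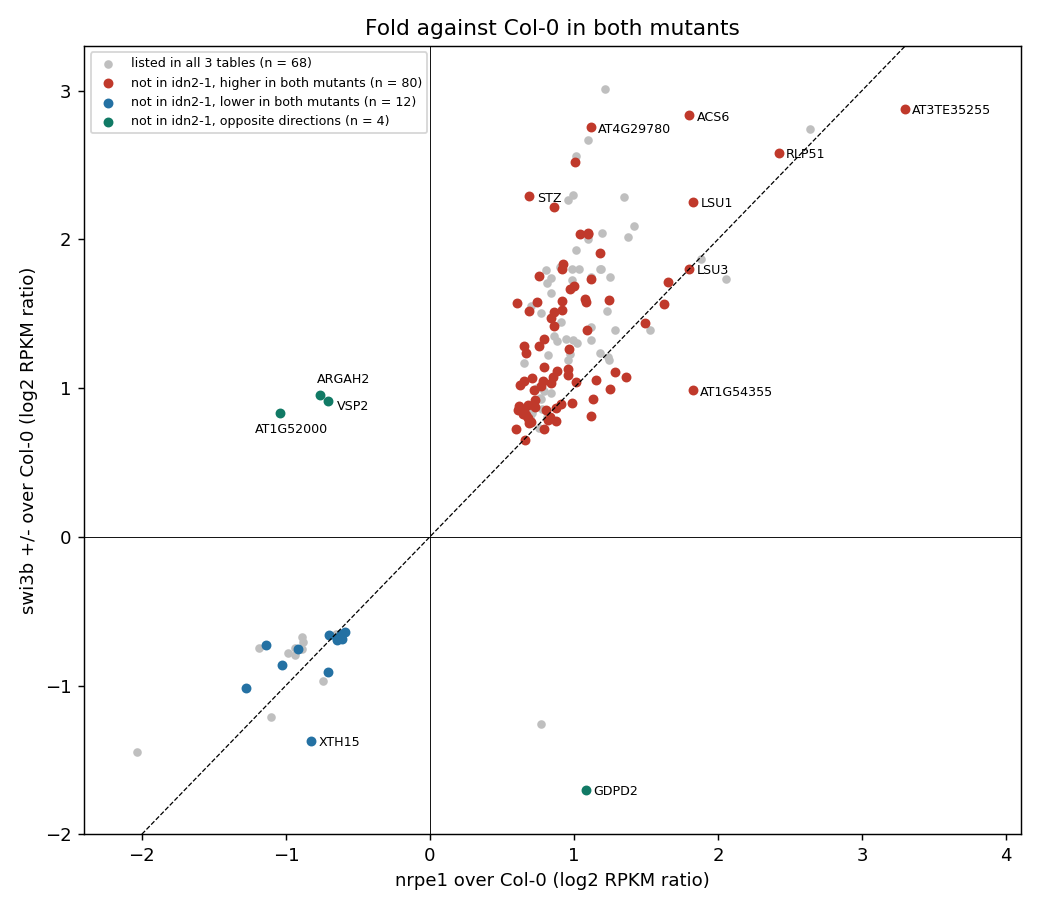
Log2 RPKM ratio over Col-0 in nrpe1 (x axis) and in swi3b +/- (y axis) for each feature listed in both tables, with the dashed line marking equal folds and grey points for features listed in all 3 tables; PRA1.F4, at 0 RPKM in Col-0, has no ratio. Most red points (higher in both mutants) lie above the line, blue points (lower in both) lie near it, and the 4 green points fall in the quadrants of opposite direction.

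Taken directly against each other, swi3b +/- was above nrpe1 for 71 members and below it for 26. The median ratio of swi3b +/- to nrpe1 was 1.18 (log2 0.23, quartiles -0.01 and 0.61). At least 1.5-fold higher levels in swi3b +/- were found for 27 members and at least 1.5-fold lower levels for 2. These shares, 27.8% and 2.06% of members, stand beside 31.5% and 1.82% of all 165 features listed in both tables, of which the members are themselves 58.8%. In the 68 features listed for all 3 mutants, 36.8% were at least 1.5-fold higher and 1.47% at least 1.5-fold lower in swi3b +/- than in nrpe1, and the median ratio was 1.24. With 1 value per genotype, none of these ratios can be set against replicate error.

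The most frequent order of levels was swi3b +/- above nrpe1 above Col-0, found for 63 members. A further 18 were highest in nrpe1, then swi3b +/-, then Col-0. Among the 12 lower members, 7 were lowest in swi3b +/- and 5 were lowest in nrpe1, and all 12 were within 1.5-fold between the mutants. Of the 81 members higher in both, 24 were at least 1.5-fold higher in swi3b +/- than in nrpe1, 6 of them at least 2-fold; the other 3 of the 27 were members with opposite directions.

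**Figure D2:**
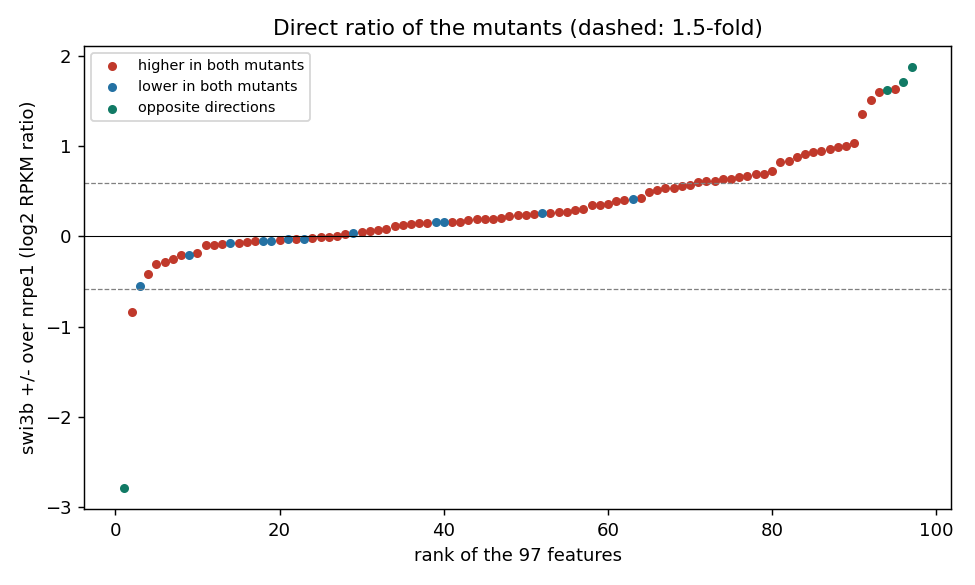
Log2 RPKM ratio of swi3b +/- to nrpe1 for the 97 features, ranked from lowest to highest, with dashed lines at 1.5-fold. In all, 68 points lie between the lines; GDPD2 stands alone at the low end with a log2 ratio of -2.79, and AT1G52000 is at the high end with 1.87.

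Sequence upstream of the members was read because it was not used to choose them. The 250 bases before the annotated start of each protein-coding gene were taken from RefSeq's TAIR10.1 genome, for 94 members and for 27443 genes in all. The short sequence CGCGTT, known as the rapid stress response element and bound by CAMTA factors, was looked for on both strands. It occurs in 7 of 78 windows of members higher in both mutants (8.97%) and in 2.59% of all windows, and in 0 of 12 windows of lower members. The stretches of 30 or 32 bases that hold it are shown on the strand of the gene, 5′ to 3′, with CGCGTT or its reverse complement AACGCG in capitals; AT1G63750 holds both, overlapping.
AT1G63750, chr1:23650778-23650809, plus strand: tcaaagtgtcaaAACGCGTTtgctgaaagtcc
AT1G66090, chr1:24601973-24602002, plus strand: attagaccattaCGCGTTtggcataaagag
CML23, chr1:24771417-24771446, minus strand: cgtctttaaaacCGCGTTaaaacgtcactt
SNZ, chr2:16391293-16391322, minus strand: tatattcatacgAACGCGtacttactattc
AT4G20860, chr4:11172403-11172432, plus strand: caatatttgttaAACGCGtatacatggtga
TZF9, chr5:23693112-23693141, plus strand: aaaaaccggaaaAACGCGtgaagcgtgaca
EXO70H7, chr5:24066281-24066310, minus strand: cttatttgacacCGCGTTtgactaatcaac
These genes include a pair of TIR genes, a calcium sensor and a CCCH zinc finger gene. Of them, AT1G66090 and CML23 were at least 1.5-fold higher in swi3b +/- than in nrpe1. Among members higher in both mutants, the element occurs in 8.33% of the 24 windows with that ratio and in 9.26% of the other 54.

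The G-box CACGTG, bound by bZIP and bHLH factors, occurs in 11.5% of the 78 windows against 6.49% of all windows. These are 9 windows, those of FBS1, PP2CA, IP5PII, MIPS1, AT5G54300 and the 4 genes shown. The clock gene CCA1, LSU3 and its neighbour NAC062, and NUDT21 were chosen as genes described elsewhere in the text; the other 6 sulphur and glucosinolate genes hold no match. The motif is again in capitals.
CCA1, chr2:19245386-19245415, plus strand: tagtgtatcagaCACGTGtcgacaaactgg
LSU3, chr3:18373151-18373180, minus strand: catgatatgtacCACGTGcagtagacagac
NAC062, chr3:18365133-18365162, minus strand: tccattcctttcCACGTGtcattacatcat
NUDT21, chr1:27646899-27646928, minus strand: cggaggatttctCACGTGaacttatctgaa
The W-box of WRKY factors, searched as TTGACC or TTGACT, occurs in 39.7% of the 78 windows and 28.4% of all. For the evening element AAATATCT the shares were 7.69% and 4.79%, for the C-repeat CCGAC 14.1% and 12%, for the GCC-box GCCGCC 2.56% and 1.87%, and for the telobox AAACCCTA 1.28% and 4.49%. A base can lie in matches to several motifs, the set of all windows is not limited to expressed genes, and a match is a description of the letters only.

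**Figure D3:**
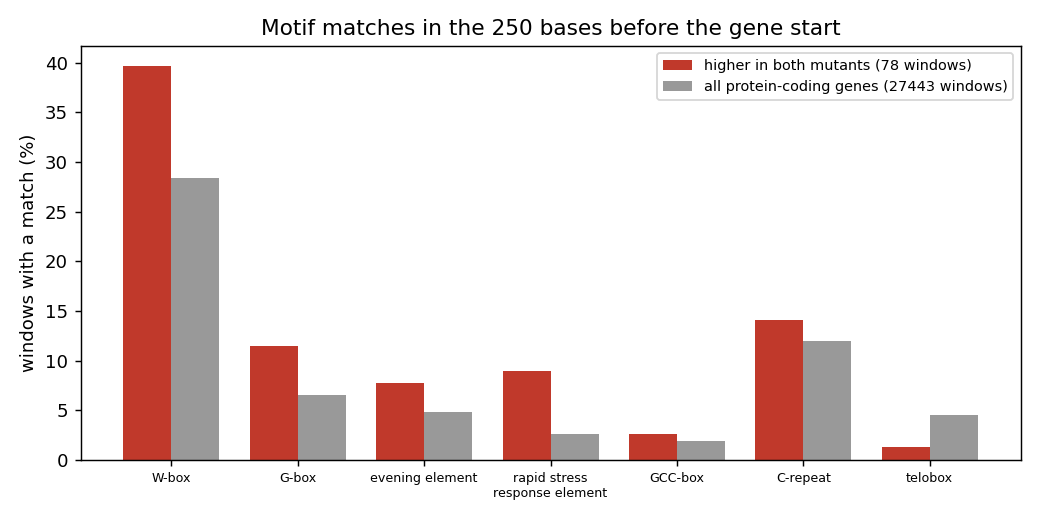
Share of 250-base upstream windows (%) with at least 1 match on either strand, for 78 members higher in both mutants (red) and all 27443 protein-coding genes (grey). The red bar for the rapid stress response element is at 8.97% and the grey one at 2.59%; the telobox is the 1 motif with the higher grey bar.

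A group of sulphur genes was higher in both mutants, LSU2 and LSU3 to a similar extent. The LSU genes encode small proteins whose transcripts accumulate when sulphur is limiting. LSU1 (AT3G49580, chromosome 3, 18375269 to 18375784) had 23.7 RPKM in swi3b +/-, 17.7 RPKM in nrpe1 and 4.98 RPKM in Col-0. LSU2 (AT5G24660) had 129.1 RPKM in swi3b +/-, 134.2 RPKM in nrpe1 and 47.7 RPKM in Col-0. For LSU3 (AT3G49570, chromosome 3, 18372533 to 18373024) the values were 35.9 RPKM in swi3b +/-, 35.8 RPKM in nrpe1 and 10.3 RPKM in Col-0. The ratio of swi3b +/- to nrpe1 was 1.34 for LSU1, 0.962 for LSU2 and 1.00 for LSU3, so all 3 were within 1.5-fold between the mutants. LSU1 and LSU3 lie 2244 bp apart, and reads shared between these related genes cannot be told apart here.

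Enzymes of sulphate assimilation and of glucosinolate synthesis rose as well, with larger folds in swi3b +/-. APR3 (AT4G21990), an APS reductase that reduces activated sulphate, had 34.8 RPKM in swi3b +/-, 22.1 RPKM in nrpe1 and 12.2 RPKM in Col-0. AKN2 (AT4G39940), an APS kinase that makes the sulphate donor for glucosinolates, had 38.8 RPKM in swi3b +/-, 26.2 RPKM in nrpe1 and 16.4 RPKM in Col-0. Its neighbour CYP79B2 (AT4G39950, 3677 bp away), which starts indole glucosinolate synthesis from tryptophan, had 22.5 RPKM in swi3b +/-, 15.5 RPKM in nrpe1 and 8.93 RPKM in Col-0. All 3 of these enzyme genes had the order swi3b +/- above nrpe1 above Col-0. FMO GS-OX3 (AT1G62560), which oxygenates the sulphur of aliphatic glucosinolates, had 11.96 RPKM in swi3b +/-, 6.51 RPKM in nrpe1 and 3.44 RPKM in Col-0. In the authors' deposited tables the largest q among these 7 sulphur and glucosinolate genes was 4.1e-07 in swi3b +/- and 0.0216 in nrpe1. Of 20 genes of sulphur limitation and sulphate assimilation, a list written after these values were seen, 9 were higher and 0 lower in swi3b +/-, and 7 were higher and 0 lower in nrpe1. Members make up 5 of them, and APR1 and APR2 are listed for all 3 mutants.

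Among the members were 4 genes of ethylene synthesis and ethylene response factors, all higher in both mutants. The 4 were gathered from the members, so nothing is read from their shared direction. At least 1.5-fold higher levels in swi3b +/- than in nrpe1 were found for 3 of the 4, and for 24 of the 81 members higher in both. ACS6 (AT4G11280, chromosome 4, 6864097 to 6866116), an ACC synthase of ethylene production, had 36.9 RPKM in swi3b +/-, 18.1 RPKM in nrpe1 and 5.18 RPKM in Col-0. The rise of ACS6 was thus 7.13-fold in swi3b +/- and 3.49-fold in nrpe1, a ratio of 2.04 between the mutants. ACS11 (AT4G08040), a second ACC synthase, behaved otherwise, with 2.99 RPKM in swi3b +/-, 2.87 RPKM in nrpe1 and 0.912 RPKM in Col-0. ACS11 was thus nearly level between the mutants. ERF104 (AT5G61600) had 74.0 RPKM in swi3b +/-, 41.7 RPKM in nrpe1 and 25.9 RPKM in Col-0. ERF105 (AT5G51190) had 43.8 RPKM in swi3b +/-, 17.1 RPKM in nrpe1 and 9.41 RPKM in Col-0. Both factors activate genes after ethylene or stress. In the list of 8 ethylene genes ACS6 was the only member; EBF2 is listed as lower in swi3b +/- and is not listed for nrpe1.

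Other transcription factors and RNA regulators made up another 12 of the members, all of them higher in both mutants. STZ (AT1G27730, also called ZAT10), a zinc finger factor induced by many stresses, had 89.3 RPKM in swi3b +/-, 29.5 RPKM in nrpe1 and 18.3 RPKM in Col-0. In the authors' deposited tables the q of STZ was 0 in swi3b +/- and 0.0481 in nrpe1, close to the limit of 0.05. MYB77 (AT3G50060) had 117.2 RPKM in swi3b +/-, 60.8 RPKM in nrpe1 and 28.4 RPKM in Col-0. MYBR1 (AT5G67300, also called MYB44), of the same MYB subgroup, had 58.2 RPKM in swi3b +/-, 36.1 RPKM in nrpe1 and 18.1 RPKM in Col-0. For both MYB genes swi3b +/- was the highest genotype, with ratios to nrpe1 of 1.93 and 1.61.

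WRKY factors of the salicylic acid response differed in their order. WRKY70 (AT3G56400) had 130.4 RPKM in swi3b +/-, 73.0 RPKM in nrpe1 and 43.6 RPKM in Col-0. WRKY18 (AT4G31800) had 54.6 RPKM in swi3b +/-, 58.6 RPKM in nrpe1 and 31.9 RPKM in Col-0. WRKY70 was thus 1.79 times as high in swi3b +/- as in nrpe1, and WRKY18 was nearly level. NAC062 (AT3G49530), a membrane-bound transcription factor, had 50.6 RPKM in swi3b +/-, 25.9 RPKM in nrpe1 and 17.0 RPKM in Col-0. CAF1a (AT3G44260), which shortens poly(A) tails, had 32.5 RPKM in swi3b +/-, 17.3 RPKM in nrpe1 and 9.12 RPKM in Col-0. Among the other regulators, HSFB2A, DOF1, SNZ, SCL13 and TZF9, folds over Col-0 were between 1.70 (SCL13) and 3.01 (HSFB2A) in swi3b +/- and between 1.61 (SCL13) and 2.37 (HSFB2A) in nrpe1.

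The gene lists in this text were chosen with earlier results of these data known, so counts in them are a description only. Over all features tested, 1.87% were listed as higher and 0.556% as lower in swi3b +/-, and 1.04% and 0.848% in nrpe1. Of 23 rapid stress transcription factors, 15 were higher and 0 lower in swi3b +/-, and 5 were higher and 0 lower in nrpe1. Members make up 4 of these (STZ, ERF104, ERF105 and MYBR1), and SZF1 is listed for all 3 mutants. In the list of 24 salicylic acid and immunity genes, 9 were higher in swi3b +/- and 4 in nrpe1. WRKY70 and WRKY18 are shared and not listed for idn2-1, and WRKY22 is listed for all 3 mutants. The jasmonate list of 22 genes had 9 higher and 0 lower in swi3b +/-, and 3 higher and 1 lower in nrpe1. JAZ5 (AT1G17380), a repressor of jasmonate responses, was higher in both, with 7.76 RPKM in swi3b +/-, 4.88 RPKM in nrpe1 and 2.58 RPKM in Col-0. AT4G29780, annotated as a nuclease, had one of the widest gaps between the mutants, with 39.8 RPKM in swi3b +/-, 12.8 RPKM in nrpe1 and 5.91 RPKM in Col-0.

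**Figure D4:**
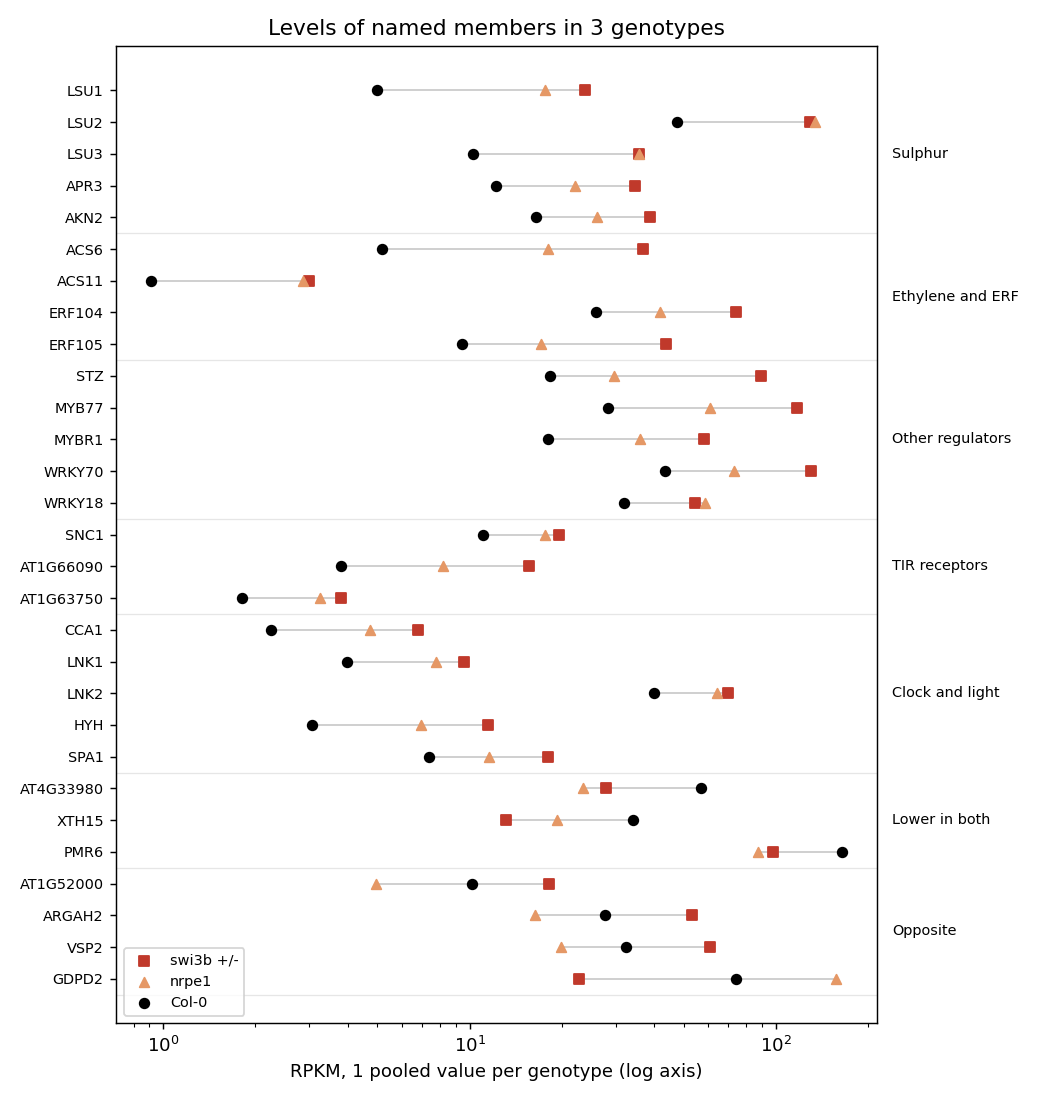
RPKM (log axis) of named members in swi3b +/- (squares), nrpe1 (triangles) and Col-0 (circles), 1 pooled value per genotype, grouped by role. The sulphur genes LSU2 and LSU3 have nearly coinciding mutant values. Ethylene genes and other regulators are mostly highest in swi3b +/-, and the last 4 genes have Col-0 between the mutants.

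The 7 immune receptor genes among the members were higher in both mutants, and 6 of them were within 1.5-fold between the mutants. The 6 genes with a TIR domain encode intracellular receptors or truncated relatives, and RLP51 is a receptor-like protein at the cell surface. SNC1 (AT4G16890), whose activation sets off constant immune responses, had 19.5 RPKM in swi3b +/-, 17.6 RPKM in nrpe1 and 11.1 RPKM in Col-0. AT1G66090 had 15.6 RPKM in swi3b +/-, 8.18 RPKM in nrpe1 and 3.81 RPKM in Col-0, and is the only one of the 7 at least 1.5-fold higher in swi3b +/- than in nrpe1. RLP51 (AT4G18760) had 3.27 RPKM in swi3b +/-, 2.92 RPKM in nrpe1 and 0.546 RPKM in Col-0. The other TIR genes, AT1G31540, AT1G63750, AT2G20142 and AT4G14370, were between 1.77-fold and 2.11-fold above Col-0 in swi3b +/- and between 1.57-fold and 2.57-fold in nrpe1. Of 132 protein-coding genes with a TIR product name, grouped after the values were seen, 17 were higher and 0 lower in swi3b +/-, and 8 were higher and 0 lower in nrpe1. Members make up 6 of them, and AT1G72940 is listed for all 3 mutants. Receptor genes of this class often have close copies elsewhere in the genome; how alike the copies of these 7 are was not measured here, and shared reads could make their separate values uncertain.

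Morning clock genes and light signalling genes were higher in both mutants, and each of these 8 genes was somewhat higher in swi3b +/- than in nrpe1. CCA1 (AT2G46830), a MYB-like repressor at the core of the clock that peaks at dawn, had 6.77 RPKM in swi3b +/-, 4.74 RPKM in nrpe1 and 2.24 RPKM in Col-0. LNK1 (AT5G64170), a co-activator of clock genes in the morning, had 9.56 RPKM in swi3b +/-, 7.76 RPKM in nrpe1 and 3.98 RPKM in Col-0. LNK2 (AT3G54500), its relative, had 69.9 RPKM in swi3b +/-, 64.4 RPKM in nrpe1 and 40.1 RPKM in Col-0. These are 3 of the 9 morning genes examined, and the remaining 6 are listed in neither table. Of 11 clock genes that act later in the day, 0 were higher and 2 lower in each mutant, PRR5 and FKF1 in swi3b +/- and PRR3 and COR27 in nrpe1, and none of these 11 is a member. A further gene entered for that list under the name COR28, AT4G33980, was left out of the count because the RefSeq annotation does not give this name; it is a member and was lower in both mutants. The labels give no time of day of collection, and its part in these values was not tested.

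HYH (AT3G17609), a bZIP factor that promotes light responses, had 11.5 RPKM in swi3b +/-, 6.93 RPKM in nrpe1 and 3.06 RPKM in Col-0. SPA1 (AT2G46340), a repressor of light signalling that works with COP1, had 18.0 RPKM in swi3b +/-, 11.6 RPKM in nrpe1 and 7.40 RPKM in Col-0. RPT2 and JAC1, which act in phototropism and chloroplast movement under blue light, rose 1.65-fold and 1.99-fold in swi3b +/- and 1.51-fold and 1.65-fold in nrpe1. TZP rose 2.07-fold in swi3b +/- and 1.72-fold in nrpe1. Of 17 light signalling genes grouped after the values were seen, 7 were higher in swi3b +/- and 5 in nrpe1, and 0 were lower in either.

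Calcium-binding proteins and kinases of calcium signalling were found in both directions. The EF-hand gene AT4G27280 had 79.9 RPKM in swi3b +/-, 28.1 RPKM in nrpe1 and 13.97 RPKM in Col-0. CML23 (AT1G66400), a calmodulin-like sensor, had 17.4 RPKM in swi3b +/-, 11.4 RPKM in nrpe1 and 5.24 RPKM in Col-0. CP1 (AT5G49480), a calcium-binding protein, had 35.9 RPKM in swi3b +/-, 24.9 RPKM in nrpe1 and 14.8 RPKM in Col-0. All 3 sensors were highest in swi3b +/-. CIPK20 (AT5G45820), a kinase bound by calcineurin B-like sensors, had 29.5 RPKM in swi3b +/-, 36.4 RPKM in nrpe1 and 16.8 RPKM in Col-0, so it was higher in nrpe1. Its relative CIPK21 (AT5G57630) was lower in both mutants, with 47.9 RPKM in swi3b +/-, 49.1 RPKM in nrpe1 and 76.8 RPKM in Col-0. A pair of heat shock protein 70 genes, AT3G09440 and Hsp70-2 (AT5G02490), was higher in both, by 1.90-fold and 1.82-fold in swi3b +/- and by 2.19-fold and 1.84-fold in nrpe1; copies of this family may share reads. Of 125 genes with a product name of calcium sensors or these kinases, grouped after the values were seen, 11 were higher and 2 lower in swi3b +/-, and 6 were higher and 1 lower in nrpe1. Among them TCH3 and AT2G41410 are listed for all 3 mutants. Of 7 calcium and touch genes, 4 were higher in swi3b +/- and 2 in nrpe1. None is a member, and TCH3 and TCH2 are listed for all 3 mutants.

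The 12 members lower in both mutants had small folds. AT4G33980, annotated as uncharacterized in RefSeq and left out of the later clock list for its name, had the largest fall by the smaller of its folds, with 27.995 RPKM in swi3b +/-, 23.4 RPKM in nrpe1 and 56.8 RPKM in Col-0. XTH15 (AT4G14130), an enzyme that cuts and rejoins wall xyloglucan, had 13.2 RPKM in swi3b +/-, 19.3 RPKM in nrpe1 and 34.1 RPKM in Col-0. By contrast XTH31 (AT3G44990), of the same enzyme family, was higher in both, with 3.86 RPKM in swi3b +/-, 4.03 RPKM in nrpe1 and 1.31 RPKM in Col-0. Of 10 cell wall remodelling genes, a list that does not hold XTH15, 6 were higher in swi3b +/- and 5 in nrpe1. XTH31 is the 1 member on that list, and PHI-1, XTR6, XTH18 and TCH4 are listed for all 3 mutants. PMR6 (AT3G54920), a pectate lyase-like protein needed for powdery mildew susceptibility, had 97.6 RPKM in swi3b +/-, 87.5 RPKM in nrpe1 and 164.8 RPKM in Col-0. BCA6, a carbonic anhydrase, PATL2, a membrane trafficking protein, and AKINBETA1, a subunit of the SnRK1 energy-sensing kinase, fell 1.88-fold, 1.62-fold and 1.56-fold in swi3b +/- and 1.63-fold, 1.57-fold and 1.505-fold in nrpe1. Of 9 sugar starvation genes, 7 were lower in swi3b +/- and 1 in nrpe1, and none is a member. The remaining lower genes, AT1G07040, AT1G22330, AT1G59710, AT4G17810 and AT5G46730, fell between 1.57-fold and 1.82-fold in swi3b +/- and between 1.53-fold and 2.20-fold in nrpe1.

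In the 4 members with opposite directions, Col-0 lay between the mutants. VSP2 (AT5G24770, chromosome 5, 8499837 to 8502224), a vegetative storage protein induced by jasmonate, had 61.0 RPKM in swi3b +/-, 19.9 RPKM in nrpe1 and 32.4 RPKM in Col-0. ARGAH2 (AT4G08870, chromosome 4, 5646439 to 5648727), a jasmonate-induced arginase, had 53.4 RPKM in swi3b +/-, 16.3 RPKM in nrpe1 and 27.6 RPKM in Col-0. AT1G52000 (chromosome 1, 19333159 to 19336115), a mannose-binding lectin gene, had 18.1 RPKM in swi3b +/-, 4.94 RPKM in nrpe1 and 10.2 RPKM in Col-0. All 3 were higher in swi3b +/- and lower in nrpe1, with ratios between the mutants of 3.07 (VSP2), 3.27 (ARGAH2) and 3.67 (AT1G52000). GDPD2 (AT5G41080, chromosome 5, 16441744 to 16443985), annotated by its name as a glycerophosphodiester phosphodiesterase, went the other way. It had 22.7 RPKM in swi3b +/-, 156.9 RPKM in nrpe1 and 73.9 RPKM in Col-0, a level 6.91 times as high in nrpe1 as in swi3b +/-. In the authors' deposited tables the largest q of these 4 genes was 0.00402 in swi3b +/- and 0.00991 in nrpe1. VSP1, related to VSP2 by name, is listed as higher in swi3b +/- and is not listed for nrpe1. Reads shared between VSP1 and VSP2 were not measured here.

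The element AT3TE35255 had the largest fold in both mutants among the members with a Col-0 value above 0. It had 16.5 RPKM in swi3b +/-, 22.1 RPKM in nrpe1 and 2.25 RPKM in Col-0, which is 7.35-fold and 9.83-fold above Col-0. Its listed locus (chromosome 3, 8410433 to 8412193) lies within the annotated span of the protein-coding gene AT3G23450. That gene is listed with the same locus in the nrpe1 table in the other direction, with 191.6 RPKM in nrpe1 and 352.6 RPKM in Col-0 (q = 0.000196 in the authors' deposited table). In the authors' deposited idn2-1 table the same locus is listed under other element identifiers, AT3TE35260 with 229.8 RPKM in idn2-1 and 1103 RPKM in Col-0 (q = 3.69e-08) and AT3TE35265 at 0 RPKM in idn2-1 and 181.3 RPKM in Col-0 (q = 0.0171). AT3TE35255 therefore counts as absent from that table by its identifier, not by its locus. Element reads and reads from the surrounding gene cannot be told apart here.

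PRA1.F4 (AT3G13710), a prenylated RAB acceptor, was listed at 0 RPKM in Col-0, with 3.13 RPKM in swi3b +/- and 2.05 RPKM in nrpe1, so no fold is given. Both mutant values are low, and the PRA1.F4 locus overlaps AT3G13700. The non-coding RNA gene AT1G54355 had 11.4 RPKM in swi3b +/-, 20.5 RPKM in nrpe1 and 5.78 RPKM in Col-0. It was the only member higher in both mutants that was at least 1.5-fold lower in swi3b +/- than in nrpe1, and its locus overlaps AT1G54350. In all, the loci of 19 members, LNK1, LNK2, APR3, ERF105, TZF9, MYBR1, XTH15 and PMR6 among them, overlap another annotated gene, and the labels do not say whether strand was kept, so part of their reads may belong to the neighbour.

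The 31 members outside these groups were all higher in both mutants, between 1.57-fold and 4.09-fold in swi3b +/- and between 1.53-fold and 2.44-fold in nrpe1. They include the abscisic acid co-receptor phosphatase PP2CA, the tetraspanin TET8, the nudix hydrolase NUDT21, the kinase MAPKKK14, the starch synthase GBSS1 and the glutathione transferase GSTU5. TET8 (AT2G23810) had 222.3 RPKM in swi3b +/-, 137.4 RPKM in nrpe1 and 70.1 RPKM in Col-0. NUDT21 (AT1G73540) had 64.5 RPKM in swi3b +/-, 32.2 RPKM in nrpe1 and 19.1 RPKM in Col-0. In these 31 the ratio of swi3b +/- to nrpe1 had a median of 1.14, and 27 were within 1.5-fold. A histone gene, AT3G53650, and the PHD finger gene AT3G53680 are neighbours 3088 bp apart and were 2.15-fold and 2.17-fold above Col-0 in swi3b +/- and 2.44-fold and 1.84-fold in nrpe1.

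The edge of the rule lies at q = 0.05. Nearest to it inside were AT5G54710 with q = 0.0499 in nrpe1 and PATL2 with q = 0.0470 in swi3b +/- in the authors' deposited tables. Just outside, among features listed for all 3 mutants, CDF1 and cPT4 had q = 0.0461 and 0.0450 in idn2-1 in the authors' deposited table. Absence from the idn2-1 table does not show a lack of change there: the smallest fold listed in that table with both values above 0 was 1.86, and 24 members were below it in both swi3b +/- and nrpe1, 34 in 1 of the mutants and 39 in neither. Protein-coding members had a median annotated length of 2239 bp, against 2078 bp for all 27444 protein-coding genes. Chromosomes 1 to 5 held 23, 8, 24, 20 and 22 of all members. The share of all genes on each chromosome was not counted, so nothing is read from these numbers.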

How the data were processed

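RNA-seq values of 9 samples, 3 each of swi3b +/-, nrpe1 and Col-0, reached the deposited tables as 1 RPKM value per genotype, computed by the authors. Per the submitters' processing notes, TopHat, Cufflinks and the TAIR10 genome were used; versions are not given in the sources used here. Per the file headers, each table also gives p-values, q-values and a log2 fold change; in that score column the authors put the largest floating-point number where a value is 0. How p and q were computed is not stated. Folds here were recomputed from the deposited RPKM (largest difference 1.24e-05 on the log2 scale) with no pseudocount.

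The 3 tables were joined by identifier in pandas 2.3.3 (python 3.11.15), and 0 columns stayed unmapped. How many features the authors tested (25877 for swi3b +/-, 27012 for nrpe1) was worked out from the listed p and q, taking q as Benjamini-Hochberg values. No test was run, since no values per replicate were at hand. Starts are written 1-based after adding 1. Names, products and sequence came from RefSeq TAIR10.1, in which 95 of 97 members matched; 3 list names that it does not give for their identifier were left out (COR28 for AT4G33980, MINU1 and MINU2).

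Members and lists were chosen with earlier results of these data known. Named were members with opposite directions, elements, the 12 largest rises, the 8 largest falls, the 8 highest and 8 lowest ratios of swi3b +/- to nrpe1 (at least 1 RPKM in a genotype), list members, members at 0 and neighbours within 10 kb. Others named were chosen after their values were seen.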

Additional observations from a re-analysis of the deposited data

How the results depend on the processing

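Counting genes alone, or each overlapping locus once, or asking for at least 1 RPKM changed no count by more than 1 feature, and without the element the median log2 ratio of swi3b +/- to nrpe1 was 0.24. With q below 0.01 in both tables, 49 members were left, 45 with the same direction (41 higher, 4 lower) and 4 opposite; 18 were at least 1.5-fold higher in swi3b +/- than in nrpe1 and 1 was lower, and the median log2 ratio was 0.30. With at least 2-fold against Col-0 in both mutants, 26 were left, 25 with the same direction (24 higher, 1 lower) and 1 opposite; 9 were at least 1.5-fold higher in swi3b +/- and 1 lower, with a median of 0.32. At a threshold of 2-fold between the mutants, 9 members were higher and 1 was lower in swi3b +/-. A pseudocount of 1 RPKM gave 23 higher and 2 lower, with a median of 0.20, and reversed none of 46 named ratios. An alternative chosen after seeing the data kept members whose folds in both mutants reach the smallest fold of the idn2-1 table: 39 were left, 38 with the same direction (37 higher, 1 lower) and 1 opposite, 15 were higher and 2 lower in swi3b +/-, and the median was 0.30. The settings on q and on folds against Col-0 keep fewer features by their construction. No median changed sign under any setting. No paired analysis was possible because the tables hold 1 pooled value per genotype, and for the same reason no replicate could be left out. Depth is unknown, so no counting limits are given.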
